A study of Mus musculus with 8 samples.

Results

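The kinesin motor family was examined in BMiFLT3 (15-3) cells, a mouse pro-B-cell line from a B-cell precursor leukaemia. Its members were the rows of the expression table whose symbol is Kif, or Kifc, followed directly by a number: 44 of 38918 rows. From their known roles, 14 rows were set down as mitotic kinesins, 15 as transport kinesins and 12 as other kinesins, and 3 rows carry pseudogene symbols. The cells had been infected with a retrovirus for blue fluorescent protein (BFP) as the control, or with one for the zinc-finger transcription factor Klf2, and both sample descriptions carry the letters BFP. The labels describe this cell line only. Poly(A) RNA was sequenced in 4 lanes per construct. Lanes that share a construct varied little beyond sampling noise (chi-square per degree of freedom 1.29 for BFP, 1.27 for Klf2) and were summed, so each group holds 1 library. No p-value is given for that reason, and no difference has a replicate check.

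Kinesins are motors that use ATP to move along microtubules or to take their ends apart. One set of them builds the mitotic spindle, moves chromosomes and completes cytokinesis, and its genes are known to be transcribed mostly in late S phase, G2 and mitosis. Another set carries vesicles, mitochondria and other cargo through the cell in all phases. In a leukaemia line that divides in culture, genes of both sets are found side by side.

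In the Klf2 library the mitotic kinesins were higher as a class and most measured transport kinesins were lower. All 13 measured mitotic kinesins had a ratio above 1, from 1.44 for Kif18a to 2.07 for Kif20a, every interval lay above 1, against 37.1% of all genes, and the median log2 difference was 0.68. Among 11 measured transport kinesins the median was -0.63, with 8 intervals below 1 (37.3% of all genes had one), 1 above (Kif5b) and 2 that held 1. Of these, Kifc2 and Kifc3 passed the floor only in BFP and so had to be lower; among the 9 at 1 CPM or more in both libraries, 6 intervals lay below 1 and the median was -0.41. Of the 8 transport kinesins at 10 CPM or more, 5 had intervals below 1 and the median was -0.36. Kif21b was the well-expressed kinesin furthest below its BFP level, at 82.1 against 187 CPM. Over all 10850 genes measured the median log2 difference was -0.01. Measured means a level of 1 CPM or more in at least 1 of the libraries, where CPM is a gene's exon reads relative to the library total after TMM scaling. Where a value stands against another, the Klf2 value comes first, and every ratio divides the Klf2 level by the BFP level. Its exact 95% interval covers counting error only, and log2 differences were taken after adding 1 to the CPM. In bulk RNA, more cells in mitosis and more RNA per mitotic cell cannot be told apart.

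The libraries held 30133978 (BFP) and 30835450 (Klf2) exon reads, with 7506567 to 7741626 per lane. The Klf2 gene had a ratio of 11.1 (9.93 to 12.6). Of 11 pro-B-cell markers in the table, 9 were measured, with Cd79a, Vpreb1 and Igll1 at 488 CPM or more in both libraries, but Rag1 had 1 exon read in each library and Dntt 1 in BFP and 9 in Klf2. None of 8 T-cell markers was measured, and 5 of them, Cd3e, Cd4 and Cd8a included, had no exon read in either library. Csf1r and Cd68 were the measured ones of 8 myeloid markers, and the summed level of the list was 13.2 CPM in BFP and 10.7 CPM in Klf2. Among 9 erythroid and stromal markers, Hbb-bt (41.3 against 85.9 CPM, 22.03% of reads uniquely placed) and Pecam1 were measured, and Hba-a1 had no exon read. The part of such cells in the kinesin differences was not tested.

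Promoter windows were set beside these values because the mitotic members moved together. Many genes of G2 and mitosis are known to carry a cell cycle homology region (CHR) near the transcription start, which MuvB complexes bind, and upstream CCAAT boxes, which NF-Y binds. Krüppel-like factors bind CACCC boxes. RefSeq windows of 300 bases (250 before and 50 after each annotated start, build GRCm38.p6, which is mm10) were matched by symbol for 33 of 44 kinesin rows, 22 of them measured. No window was matched for the measured kinesins Kif20a (mitotic), Kif5a, Kif5b, Kif13b, Kifc2 and Kifc3 (transport) and Kif21b (other), so their motifs are not known here. Both strands were searched for TTTGAA, the CHR core, for CCAAT, and for CACCC, the KLF box core. None of these contains another.

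The CHR core was in 11 of 12 windows of measured mitotic kinesins, the exception being Kif18a, against 5878 of all 32851 windows (17.9%). It was in 0 of 7 windows of 6 measured transport genes and in 0 of 6 windows of 4 measured other kinesins. The class split did not hold among kinesins below the floor. There the core was in a window of Kif1a (transport) and in those of Kif26b and Kif27 (other). It was absent from the window of Kif2b (mitotic) and from all others below the floor. In 9 of the 12 mitotic windows a match started within 30 bases of the annotated start, against 3.14% of all windows; that distance was chosen after the positions were seen. CCAAT was in 8 of 12 mitotic and 4 of 7 transport windows, against 37.4% of all. CACCC was in 6 of 12 mitotic windows, 7 of 7 transport and 6 of 6 other windows, against 57.5% of all. Kif1b, Kif2a and Kif9 have 2 overlapping windows each, so a match that both windows share is counted for both. The median GC content of the windows was 61.5% for mitotic, 69.3% for transport and 52.7% for all windows. These matches are letters in a window and show no binding, which was not measured here.

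The stretches below run 5′ to 3′ from 80 bases before the annotated start to 20 bases after it (RefSeq, GRCm38.p6). They show where the CHR core lies in 7 mitotic genes, and then Kif18a and 3 transport genes without it. Capitals mark whole matches to the CHR core, the CCAAT box or the KLF box core on either strand.
Kif11, chr19:37376302-37376401, plus strand: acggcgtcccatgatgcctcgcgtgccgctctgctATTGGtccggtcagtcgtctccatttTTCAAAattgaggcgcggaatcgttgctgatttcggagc
Kif15, chr9:122951001-122951100, plus strand: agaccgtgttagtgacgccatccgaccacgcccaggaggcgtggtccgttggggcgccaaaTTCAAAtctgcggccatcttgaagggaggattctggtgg
Kif22, chr7:127042401-127042500, minus strand: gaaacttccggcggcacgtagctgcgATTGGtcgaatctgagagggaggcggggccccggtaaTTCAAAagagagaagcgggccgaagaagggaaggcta
Kif23, chr9:61946780-61946879, minus strand: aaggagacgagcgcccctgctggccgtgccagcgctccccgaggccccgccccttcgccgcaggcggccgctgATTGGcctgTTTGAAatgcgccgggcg
Kif18b, chr11:102925105-102925204, minus strand: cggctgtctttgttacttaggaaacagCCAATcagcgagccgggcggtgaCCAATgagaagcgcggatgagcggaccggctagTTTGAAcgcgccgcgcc
Kifc1, chr17:33890614-33890713, minus strand: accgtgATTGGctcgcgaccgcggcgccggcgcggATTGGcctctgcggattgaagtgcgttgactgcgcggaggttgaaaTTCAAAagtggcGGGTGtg
Kif20b, chr19:34922278-34922377, plus strand: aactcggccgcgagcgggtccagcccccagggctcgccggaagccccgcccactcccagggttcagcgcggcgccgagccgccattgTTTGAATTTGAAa
Kif18a, chr2:109280658-109280757, plus strand: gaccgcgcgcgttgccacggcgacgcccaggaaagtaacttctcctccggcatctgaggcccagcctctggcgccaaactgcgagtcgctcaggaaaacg
Kif1b, chr4:149307679-149307778, minus strand: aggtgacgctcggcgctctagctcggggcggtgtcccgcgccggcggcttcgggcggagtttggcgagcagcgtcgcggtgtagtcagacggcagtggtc
Kif3a, chr11:53567289-53567388, plus strand: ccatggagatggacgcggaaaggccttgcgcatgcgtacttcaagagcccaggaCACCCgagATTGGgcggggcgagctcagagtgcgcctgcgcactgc
Kif3b, chr2:153291336-153291435, plus strand: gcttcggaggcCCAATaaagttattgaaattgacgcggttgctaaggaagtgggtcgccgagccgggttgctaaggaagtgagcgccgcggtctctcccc
In Kif11, Kif15 and Kif22 the core, read on the opposite strand, starts 17 to 19 bases before the annotated start. Kif20b has 2 cores in a row just after it. The 80 bases before the start of Kif18b and Kifc1 hold 2 CCAAT boxes each.

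**Figure D1:**
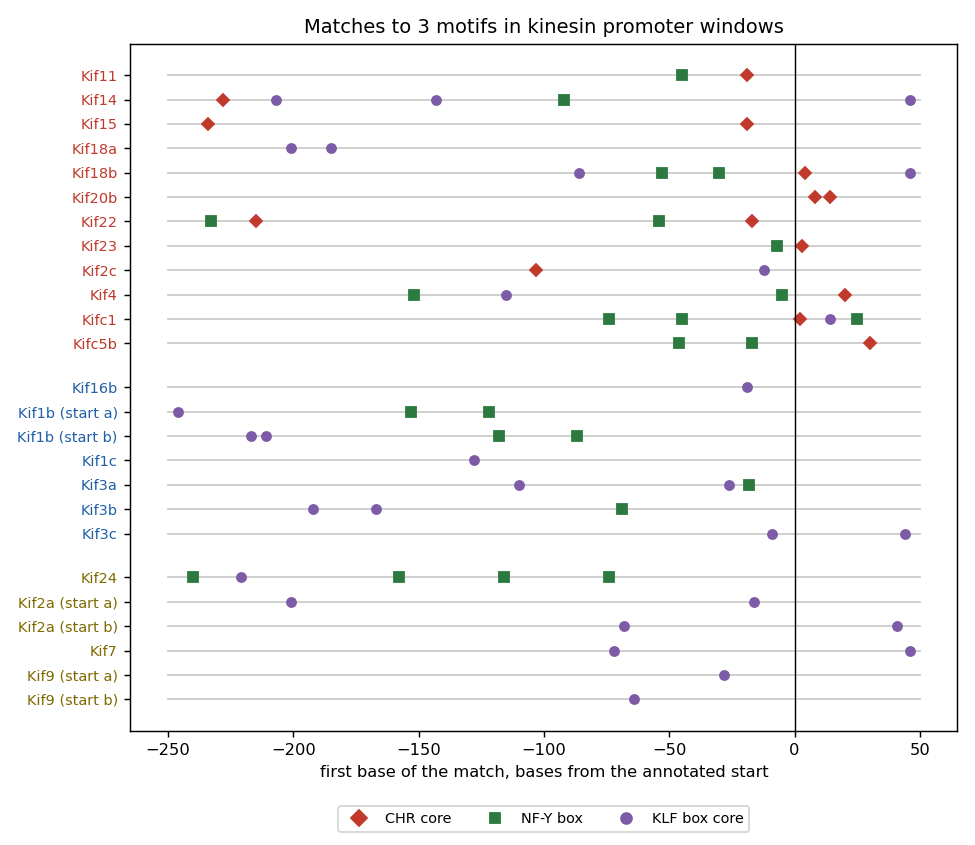
Matches to 3 motifs in the promoter windows of the 22 measured kinesins with a window, as the distance of the first base of the match from the annotated start, in bases; diamonds are CHR cores, squares NF-Y boxes (CCAAT) and circles KLF box cores, on either strand. The CHR core appears in 11 of 12 mitotic windows, at the top, and in none of the transport or other windows below; a gene with 2 annotated starts has 2 lines.

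Among the mitotic kinesins, the member furthest from its BFP level was a motor of cytokinesis. Kif20a, which brings Aurora B and its partners to the central spindle (chromosome 18, 34624624 to 34633265), was at 106, 102, 99.7 and 106 CPM in lanes 1 to 4 of BFP and at 215, 218, 202 and 224 CPM in those of Klf2. Its lanes did not overlap, and the ratio was 2.07 (1.99 to 2.16). It was the only mitotic member past 2-fold, where 2.45% of all genes were at least 2-fold higher with an interval above 1. Of its reads 70.4% were uniquely placed, with a ratio of 2.07 on these alone, and 29.3% of its annotated exon bases overlap Cdc23 on the opposite strand, which the counting may not separate.

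Kif20b, another kinesin of late cytokinesis (chromosome 19, 34922358 to 34975731), was at 39.1, 36.6, 37.01 and 38.3 CPM in the BFP lanes and at 65.3, 64.5, 69.2 and 70.5 CPM in the Klf2 lanes. The ratio was 1.78 (1.66 to 1.92), on reads that were all uniquely placed. Kif23, the motor subunit of centralspindlin, stood at 94.8 CPM in Klf2 against 58.9 in BFP, for a ratio of 1.61 (1.52 to 1.71). For Kif14, which binds citron kinase at the midbody, the values were 46.1 and 30.8 CPM, and the ratio was 1.497 (1.38 to 1.63). All Klf2 lanes of these 4 genes lay above all BFP lanes. Lanes of a construct are 1 library, so this is no replicate check, and its share among all genes was not computed.

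Among motors that act on chromosomes and spindle poles, every measured member likewise had a ratio above 1. Kif2c, a depolymerase at centromeres that frees wrongly attached microtubules (chromosome 4, 117159639 to 117182639), was at 68.9, 66.2, 69.9 and 74.1 CPM in BFP and at 132, 124, 121 and 123 CPM in Klf2. Its ratio was 1.79 (1.7001 to 1.89). Kif15, which helps to hold the spindle bipolar (chromosome 9, 122951081 to 123018725), was at 58.5, 58.9, 57.9 and 61.04 CPM in BFP and at 99.6, 96.8, 95.4 and 97.7 CPM in Klf2, a ratio of 1.65 (1.55 to 1.75).

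The chromokinesins, which bind chromosome arms, were close to each other in ratio. Kif4 (chromosome X, 100625737 to 100727214) was at 35.4, 30.7, 28.4 and 33.97 CPM in BFP and at 54.4, 53.5, 51.2 and 51.7 CPM in Klf2. Its ratio was 1.64 (1.52 to 1.78), and 15.1% of its annotated exon bases overlap Pdzd11 on the opposite strand. Kif22 had 1.62 (1.54 to 1.696), at 144 against 89.3 CPM. Kif11, the motor that pushes spindle poles apart and the target of spindle poisons such as monastrol, stood at 163 CPM in Klf2 against 102 in BFP, for a ratio of 1.60 (1.53 to 1.67). On chromosome 17, Kifc1, a minus-end motor that gathers poles, and its near copy Kifc5b had ratios of 1.49 (1.40 to 1.58) and 1.53 (1.42 to 1.64). Only 49.2% and 30.7% of their reads were uniquely placed, so the pair cannot be fully separated, and on unique reads the ratios were 1.46 and 1.33. The kinesin-8 motors, which limit the growth of microtubule ends, had ratios of 1.44 (1.26 to 1.65) for Kif18a and 1.498 (1.42 to 1.58) for Kif18b. Only 24.7% of Kif18b reads were uniquely placed, with a ratio of 1.45 (1.30 to 1.61) on these alone. Kif2b, also listed as mitotic, had no exon read.

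**Figure D2:**
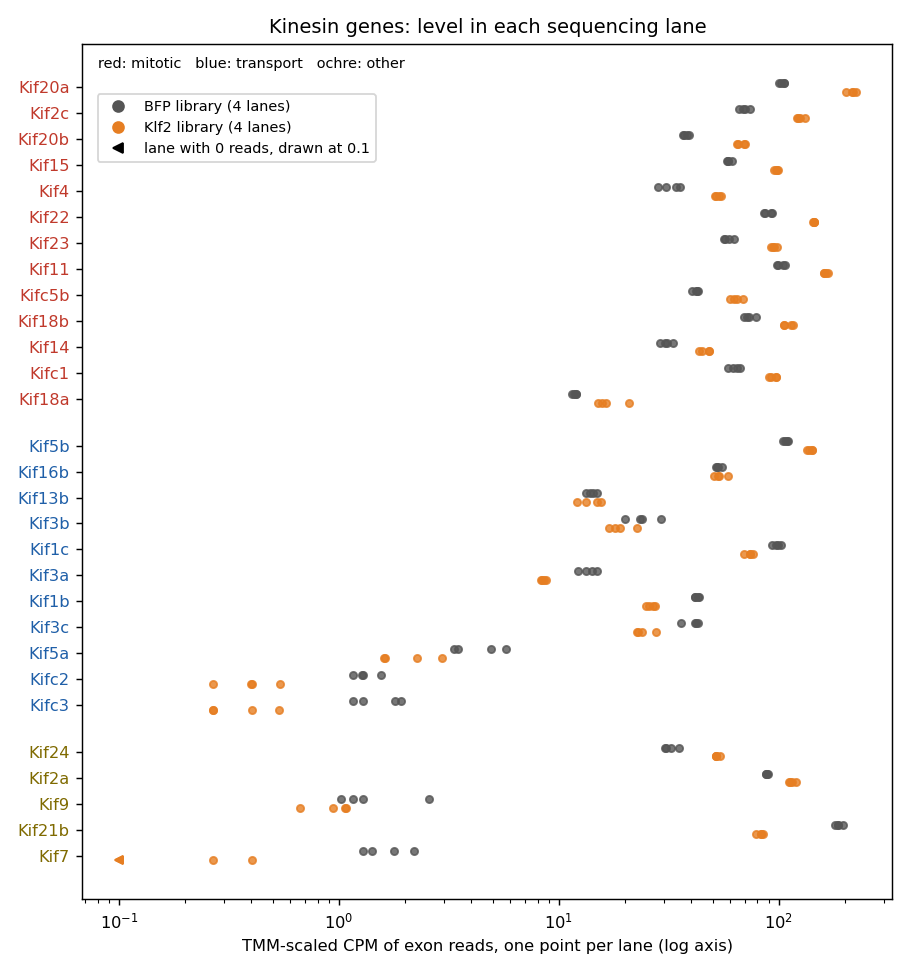
TMM-scaled CPM of exon reads (log axis) for the 29 measured kinesins, 1 point per sequencing lane, grey for BFP and orange for Klf2; a lane with no read is drawn as a triangle at 0.1 CPM. The Klf2 lanes lie above the BFP lanes for all 13 mitotic kinesins, and below them for 7 of 11 transport kinesins. Among the latter, Kifc2 and Kifc3 passed the floor only in BFP. Lanes of a construct are 1 library, and the share of all genes with separate lanes was not computed.

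With the limit of 1.5-fold, 9 of 13 mitotic kinesins were higher, against 10.2% of all genes that were at least 1.5-fold higher with an interval above 1. Kif18b (1.498), Kif14 (1.497) and Kifc1 (1.488) lay just outside the limit and Kifc5b (1.53) just inside. Genes of high expression had higher ratios in general: when all genes were split by mean CPM into 5 equal bins, their median log2 difference ran from -0.14 in the lowest bin to 0.17 in the highest. Of the mitotic kinesins, 1 lay in bin 2 from the bottom, 3 in bin 3, 6 in bin 4 and 3 in bin 5. In these bins, 7.33%, 7.28%, 9.26% and 14.0% of genes were at least 1.5-fold higher, and 23.9%, 35.0%, 47.2% and 61.5% had intervals above 1. Scaling on the highest bin, which moves the median of all genes to -0.16, left 3 of 13 past 1.5-fold, and scaling on the lowest, which moves it to 0.19, took all 13. Relative to the median of all genes, the mitotic median was 0.67 and 0.69 under these scalings, against 0.68.

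Most transport kinesins lay below 1, with Kif5b above it and Kif13b and Kif16b near it. Kif3a and Kif3b are the motor subunits of heterotrimeric kinesin-2, which moves cargo along cilia and in the cytoplasm, and Kif3c can pair with Kif3a in place of Kif3b. Kif3a stood at 8.50 CPM in Klf2 against 13.7 in BFP, for a ratio of 0.622 (0.530 to 0.728), and no lane of one library reached the other. Kif3c stood at 24.3 CPM in Klf2 against 40.5 in BFP, for a ratio of 0.599 (0.546 to 0.657). On uniquely placed reads, 60.2% of the total, Kif3c had 0.509, and 35.3% of its annotated exon bases overlap the antisense gene 1110002L01Rik. Kif3b stood at 19.2 CPM in Klf2 against 24.1 in BFP, for a ratio of 0.795 (0.712 to 0.888), its lanes overlapped, and without lane 4 the ratio was 0.888 with an interval that held 1.

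Of the kinesin-3 motors, Kif1b, a carrier of mitochondria and vesicles, stood at 26.2 CPM in Klf2 against 42.4 in BFP, for a ratio of 0.617 (0.564 to 0.674). Kif1c, which moves secretory vesicles and integrins, stood at 73.6 CPM in Klf2 against 98.1 in BFP, for a ratio of 0.750 (0.710 to 0.793). The lanes of both were separate. Kif13b (0.988, 0.862 to 1.13) and the endosome motor Kif16b (1.02, 0.9498 to 1.09) had intervals that held 1 on exon reads. With intron reads included they were at 1.18 and 1.12, both with intervals above 1.

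Kif5b is the widely expressed heavy chain of conventional kinesin, and it was the transport gene with the most reads. It was at 104, 107, 110 and 109 CPM in the BFP lanes and at 137, 142, 135 and 141 CPM in the Klf2 lanes, a ratio of 1.29 (1.24 to 1.35). Its neuronal relative Kif5a was at 3.49, 3.35, 4.90 and 5.75 CPM in BFP and at 1.60, 2.95, 1.61 and 2.27 CPM in Klf2, a ratio of 0.482 (0.352 to 0.654). Kif5b thus differed in direction from Kif5a, and Kif5c had no exon read.

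The minus-end motors Kifc2 and Kifc3 were past 2-fold on few reads. Kifc3 (chromosome 8, 95099832 to 95142540) had 10, 9, 14 and 15 reads in the BFP lanes and 4, 2, 3 and 2 in the Klf2 lanes, a ratio of 0.238 (0.112 to 0.466). Kifc2 (chromosome 15, 76660641 to 76668196) had 10, 12, 9 and 10 reads in BFP and 2, 3, 4 and 3 in Klf2, a ratio of 0.305 (0.146 to 0.591). Both passed the 1 CPM floor only in the BFP library, so they had to be lower to be measured.

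By the 1.5-fold limit 6 of 11 transport kinesins were lower and none higher, where 13.9% of all genes were lower by that rule. These 6 include Kifc2 and Kifc3, which had to be lower. Among the 9 at 1 CPM or more in both libraries, 4 were lower, against 12.4% of genes under that floor rule. In the lowest expression bin, which held Kif5a, Kifc2 and Kifc3, 29.0% of genes were at least 1.5-fold lower. With a floor of 10 CPM, 8 transport kinesins were left, with 3 lower by 1.5-fold (Kif3a, Kif3c and Kif1b). Scaling on the lowest bin also left 3 past the limit. The summed reads of the 15 transport rows, in which Kif5b weighs most, gave a ratio of 0.903 (0.880 to 0.927), and those of the 14 mitotic rows 1.67 (1.64 to 1.695).

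**Figure D3:**
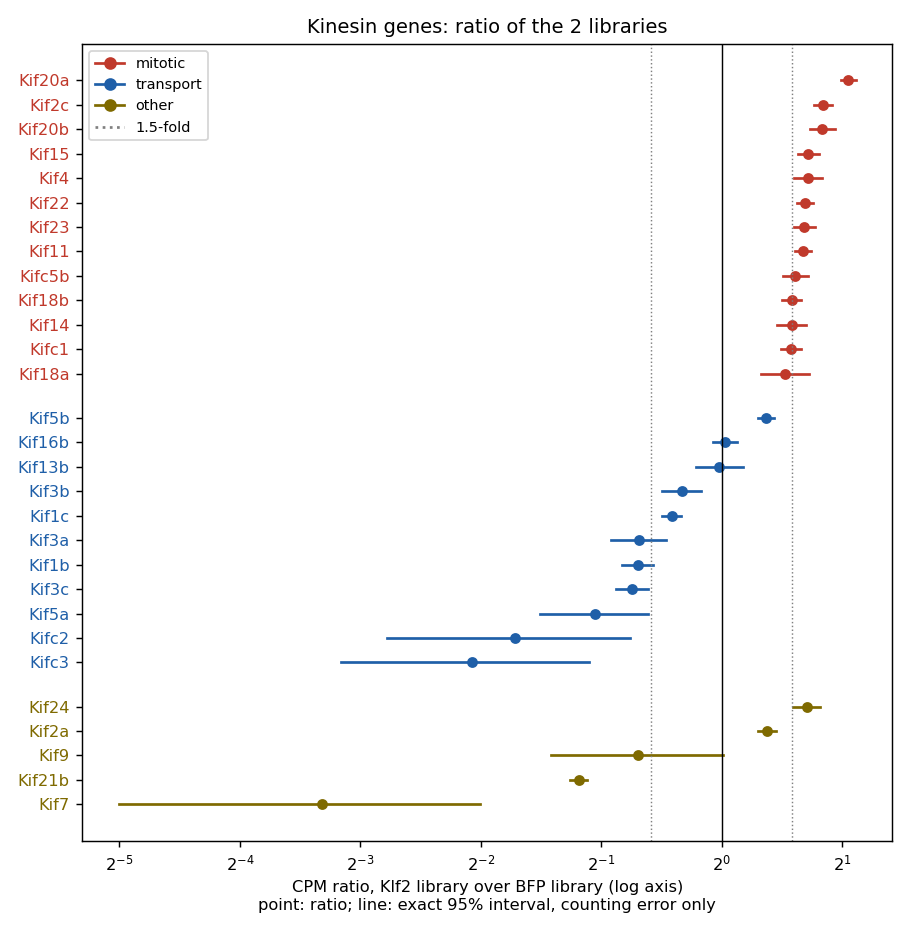
Ratio of CPM in the Klf2 library over the BFP library (log axis) for the 29 measured kinesins, with exact 95% intervals for counting error; the solid line marks 1 and dotted lines 1.5-fold in each direction. Mitotic kinesins sit between 1.44 and 2.07, and transport kinesins between 0.238 and 1.29.

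The other kinesins held both directions. Kif21b, a kinesin-4 motor that restrains microtubule growth and is known from neurons and lymphocytes (chromosome 1, 136131389 to 136177998), was at 186, 180, 196 and 187 CPM in the BFP lanes and at 78.6, 82.7, 82.6 and 84.5 CPM in the Klf2 lanes. The lanes were far apart and the ratio was 0.439 (0.419 to 0.460), on 2454 against 5815 reads that were all uniquely placed. In the highest expression bin, where it lay, 1.2% of genes were at least 2-fold lower with an interval below 1, against 5.67% of all genes. Among the scalings tried the ratio stayed between 0.391 and 0.506.

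Kif7, a regulator of Hedgehog signalling at the tip of the cilium (chromosome 7, 79698098 to 79715720), had 11, 17, 10 and 14 reads in the BFP lanes and 2, 3, 0 and 0 in the Klf2 lanes. The ratio was 0.1001 (0.0312 to 0.249), but the gene passed the floor only in BFP, and 19.1% of its annotated exon bases overlap an antisense gene. Kif24, a centriolar depolymerase that holds back cilium formation, stood at 52.4 CPM in Klf2 against 32.1 in BFP, for a ratio of 1.63 (1.51 to 1.77), within the range of the mitotic kinesins. Kif2a, which takes apart microtubules at spindle poles and in interphase, stood at 115 CPM in Klf2 against 88.1 in BFP, for a ratio of 1.30 (1.24 to 1.37), and 19.2% of its annotated exon bases overlap Dimt1 on the opposite strand. Both had separate lanes. Kif9, a kinesin of motile cilia, had 28 reads against 47, with an interval that held 1 (0.374 to 1.011).

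Below the floor were 15 members, under 1 CPM in both libraries. Of these, 10 had no exon read in either: Kif1a, Kif5c, Kif2b, Kif6, Kif12, Kif21a, Kif26a, Kif26b, Kif22-ps and Kif4-ps. Kif22-ps and Kif4-ps are listed with 0 exons, so their 0 sets no limit; for the others a level of up to 0.0965 CPM (BFP) or 0.1004 CPM (Klf2) is compatible with 0 exon reads. Kif1a, Kif5c, Kif6 and Kif26b had reads outside exons in both libraries, and Kif21a and Kif26a in Klf2. Kif13a had 2 reads in each library, and Kif27 and Kifc5c-ps 1 in BFP only. Kif17, a kinesin-2 motor of dendrites and cilia, had 0 reads in BFP and 14 in Klf2, at least 4.86-fold higher against a floor of 3 reads for the BFP library, which leaves out the counting error of the 14 reads; the exact interval of its ratio starts at 3.45. In the Klf2 library 91.7% of its gene reads lay outside exons. Kif19a had 16 reads against 4, a ratio of 4.16 (1.34 to 17.1).

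**Figure D4:**
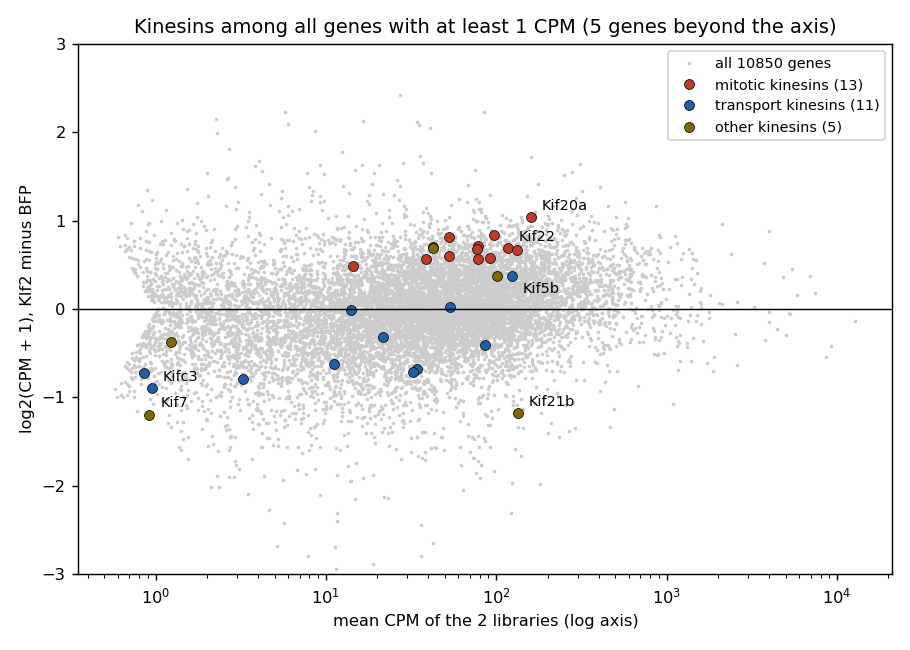
Difference on the log2(CPM + 1) scale between the Klf2 and BFP libraries against mean CPM (log axis) for all 10850 measured genes (grey) and the kinesins by class; 5 genes lie beyond the axis. The 13 mitotic kinesins form a band around 0.68 at medium and high levels, and Kif21b lies below the other kinesins of its level.

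Levels were also compared per kilobase of exon (CPM per kb). Kif22 was first in both libraries (43.3 in BFP and 69.9 in Klf2), followed by Kif20a (27.3 and 56.5), Kif11 (21.2 and 33.8) and Kif18b (20.6 and 30.8). Kif21b was sixth of 29 in BFP, at 17.3, and 16th in Klf2, at 7.59. The median level of the mitotic class was 16.0 in BFP and 27.6 in Klf2, and that of the transport class 3.81 and 2.49. Kif18a, at 1.20 and 1.73, was the lowest of the mitotic class per kilobase. The share of gene reads outside exons had a median of 23.4% (BFP) and 24.7% (Klf2) in the mitotic class, and of 13.5% and 17.3% in the transport class. Reads across exon junctions made up 26.5% and 26.0% of exon reads in the median mitotic kinesin.

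The listed kinesins whose symbol is not Kif lay on both sides of 1. Cenpe, the kinetochore motor that brings chromosomes to the metaphase plate, stood at 61.01 CPM in Klf2 against 33.3 in BFP, for a ratio of 1.83 (1.699 to 1.98). Stard9, a large kinesin-3 protein, had 44 reads against 111, a ratio of 0.412 (0.284 to 0.590), with 60.6% of reads uniquely placed.

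Most partners of the mitotic motors were higher to a like degree. Of 21 spindle and midzone genes, 12 were at least 1.5-fold higher and none lower by that limit, against 10.2% of all genes higher. Of their intervals 20 lay above 1, against 37.1% of all genes, and the median log2 difference was 0.68. Numa1, named after its value was seen, went the other way, with a ratio of 0.933 (0.908 to 0.959). Of the 21, 10 lay in the highest expression bin, where 14.0% of genes were at least 1.5-fold higher and 61.5% of intervals lay above 1. Hmmr, a microtubule protein of spindle poles, was at 71.4 against 34.1 CPM, and the mitotic kinases Plk1 and Aurka were at 189 against 94.8 and at 138 against 74.4 CPM. Cdca8, which with Aurora B forms the complex that Kif20a carries, was at 158 against 82.1 CPM. Racgap1, the partner of Kif23, had a ratio of 1.63 and Prc1, which recruits Kif4, of 1.52, both named after their values were seen. Of 15 other G2/M genes, 13 were at least 1.5-fold higher, all 15 intervals lay above 1 and the median was 0.82, against the same shares of all genes, and 9 of them lay in the highest bin. Cdc20 (2.05), Cdk1 (2.01), Ccna2 (1.96) and Ccnf (1.93) had the largest ratios. Apart from Numa1, these genes had intervals above 1, as the mitotic kinesins did. Several had ratios below that of any mitotic kinesin, such as Pttg1 (1.13) and Clasp1 (1.17), both named after their values were seen. The share of cells in G2 and mitosis was not measured, and its part in the kinesin differences was not tested.

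Partners of the transport motors held both directions. Of 15 measured subunits and cargo adaptors, 4 were at least 1.5-fold lower, 1 was higher, 9 intervals lay below 1 and 4 above (Rhot1, Rhot2, Trak2 and Klc3), with a median of -0.24. Of all genes, 13.9% were at least 1.5-fold lower and 37.3% had intervals below 1. The kinesin light chain genes Klc4 and Klc2, whose products couple kinesin-1 to cargo, were at 3.95 against 10.7 CPM and at 4.02 against 9.62 CPM. Arl8a, a lysosomal GTPase that links to kinesin-1, was at 59.9 against 118 CPM. Kifap3, the non-motor subunit that joins Kif3a and Kif3b, stood at 6.29 CPM in Klf2 against 11.4 in BFP, for a ratio of 0.554 (0.462 to 0.663). The light chain gene Klc1 had a ratio of 0.875, and Klc3, the gene that was higher, had 64 reads against 44. Both were chosen after their values were seen, as were Rhot1, Rhot2 and Trak2. Uniquely placed reads made up 60.4% for Klc4, 61.1% for Klc3 and 30.6% for Rhot2. On these alone the ratios were 0.482, 1.71 and 1.06, against 0.370, 1.51 and 1.14 on all exon reads.

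Cytoplasmic dynein, the opposing motor, gave no such split. None of its 18 measured subunit and dynactin genes passed 1.5-fold in either direction, against 10.2% (higher) and 13.9% (lower) of all genes, and the median was -0.07, with 6 intervals above 1 and 10 below. The largest differences were in Dync1li2 (ratio 0.669), Nde1 (1.38), Dctn5 (0.738) and Dynlrb1 (1.32). Among 13 measured tubulin genes, 8 were at least 1.5-fold higher and 3 lower, beside the same shares of all genes. The 8 include Tuba8 and Tubb3, which passed the floor only in Klf2 and so had to be higher. Tuba4a was at 216 against 88.1 CPM, Tuba8 had 67 reads against 19, and Tuba1b (ratio 1.95, 6.36% of reads uniquely placed) and Tuba1c (1.95, 6.88%) share most reads with copies.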

How the data were processed

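RNA of 2 libraries of BMiFLT3 (15-3) cells was sequenced in 4 lanes each on a HiSeq machine. Per the labels' protocols 2 library kits were in use, and the kit of each library is not named. The submitters' processing notes name CASAVA 1.8.2 and the build mm10. Aligner, counting program, annotation and use of strand: not given in the sources used here. Per the file headers, the deposited counts cover, for each lane and gene, the exon reads (total and uniquely placed), the gene reads with introns and the junction reads. Counts of all exon reads were the main values, with exon lengths from the same table.

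Lanes were summed after a chi-square check (genes with at least 20 reads, limit 1.5 per degree of freedom). Library sizes were scaled by TMM (edgeR 4.0.16, R 4.3.3), with factors of 1.03 (BFP) and 0.969 (Klf2). Intervals are exact 95% (Clopper-Pearson), conditional on the summed reads; without molecular identifiers they cover counting error only. A gene was called when its ratio passed 1.5-fold or 2-fold and the interval excluded 1; genes under 1 CPM in both libraries were left out. The step was tested on simulated data. Scripts ran in Python 3.11.15 with scipy.

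The members, classes and lists were chosen with earlier results of these data known. The 5 mitotic and the 3 transport or other measured members furthest from 0 in log2 difference, and all past 2-fold, are given lane by lane; of each list, up to 4 genes with the largest difference are named unless stated. The positions of all 44 kinesin rows overlapped those that GENCODE M21 gives for the same symbols. The last 30 bases of 31 of 37 promoter windows were found in a transcript of the same gene, which checks their strand. They were not found for Kif2c, Kif7, Kif11 and Kif23, nor for a window each of Kif1b and Kif2a. The printed stretches of Kif11 and Kif23 are therefore unchecked in this way, while that of Kif1b comes from its checked window. A planned look at the motor's place along each protein was not analysed here. Alternatives were other read sets, scalings, floors, a smaller pseudocount, leaving out each lane, and other class borders.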

Additional observations from a re-analysis of the deposited data

How the results depend on the processing

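The order of the classes held under every setting tried: all mitotic intervals stayed above 1, and the median of the mitotic kinesins exceeded that of the transport kinesins by 1.04 to 1.37 on the log2 scale, against 1.30 as reported. With total-count scaling the mitotic median was 0.59 and no member passed 2-fold, a count of 0. Scaling on the lowest of 5 expression bins gave a mitotic median of 0.88, 3 members past 2-fold and 3 transport kinesins past 1.5-fold lower. Scaling on the highest bin gave 0.51, 3 mitotic members past 1.5-fold and 0 past 2-fold. With no low-count filter the transport median was -0.41, the difference of medians 1.09, and 1 transport kinesin (Kif17) was past 1.5-fold higher; with intron reads included that count was also 1. A floor of 10 CPM left a transport median of -0.36, 3 transport members lower and a difference of 1.04. Restricting to members with at least 90% uniquely placed reads, counting Kif21b as transport, and requiring 1 CPM in both libraries were chosen after seeing the data: the first gave 0 mitotic members past 2-fold, since it leaves out Kif20a, the second a transport median of -0.65, and the last a transport median of -0.41 and a difference of 1.09. Leaving out each lane in turn gave 9 to 11 mitotic members past 1.5-fold and 6 transport members lower in each case, Kifc2 and Kifc3 among them. The medians were 0.66 to 0.67 and -0.65 to -0.58. Where a setting changes only the scaling, floor or members, that construction is the cause; for intron reads the cause was not tested. No paired analysis was possible because each group is 1 library and the lane numbers carry no test. Members with few reads (Kif7, Kifc2, Kifc3, Kif9) have wide intervals at this depth.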
